A study of Mus musculus with 4 samples.

Results

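The annexins measured here were 9 genes of the mouse annexin family, Anxa1, Anxa2, Anxa3, Anxa4, Anxa5, Anxa6, Anxa7, Anxa11 and Anxa13, picked by name from the 32285 genes of the spatial count tables, which list 12 annexin genes in all. The tables came from 4 sections of the left kidney, 10 µm thick, of wild-type C57BL/6J male mice aged 7 to 8 weeks: 2 from normal control mice and 2 from mice whose renal pedicles were both clamped for 30 min and whose kidneys were taken 24 h after ischemia. Sections were laid on 4 differently lettered capture areas of Visium slides, and whether they shared a slide is not given here. Each barcoded spot of such an area collects the RNA of a small region that can hold several cells of different types. The study used 2 mice for each condition with repeat sections of each, but the mouse behind a section is not given. The p-values below thus measure the spread between sections, which may be technical. In the tests by kidney zone, 20 zone and section units entered 1 model as separate units. Zones of a section share a library, so those p-values do not rest on 20 independent samples. No allele or transgene distinguished the groups. The paper describes pentobarbital anesthesia, abdominal surgery and warm saline for the ischemic mice, and no sham operation for the normal ones. Effects of these cannot be told apart from those of ischemia.

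Annexins are cytosolic proteins that bind negatively charged phospholipids, above all phosphatidylserine, when calcium rises, through a conserved core of repeats, while a variable N-terminal tail binds partners such as S100 proteins. They gather at torn plasma membrane, where they help to reseal it, and take part in endocytosis, exocytosis and the linkage of membranes to actin. In the kidney they are found along the tubule epithelium, in the urothelium and in leukocytes, and calcium entry and exposure of phosphatidylserine are features of ischemic tubule injury.

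On GRCm38, in the GENCODE M21 annotation, the members are scattered over the genome: Anxa1 on chromosome 19 (20373428 to 20390944, minus strand), Anxa2 on chromosome 9 (69453620 to 69491795, plus strand) and Anxa3 on chromosome 5 (96793339 to 96845966, plus strand). On other chromosomes lie Anxa4 on chromosome 6 (86736840 to 86793584, minus strand), Anxa5 on chromosome 3 (36448923 to 36475894, minus strand) and Anxa6 on chromosome 11 (54979108 to 55033445, minus strand). The last are Anxa7 on chromosome 14 (20455260 to 20480133, minus strand), Anxa11 on chromosome 14 (25842156 to 25886804, plus strand) and Anxa13 on chromosome 15 (58341471 to 58389244, minus strand). All but Anxa13 are annotated there as protein coding, and the Anxa13 entry is a processed transcript. Anxa7 and Anxa11 share chromosome 14 but lie apart on it.

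Promoter windows were read for the members that carry most of what follows, to show the sequence upstream of genes that were higher after ischemia. RefSeq promoter windows on GRCm38.p6, from 250 bases before to 50 bases after a start site, matched 6 of the 9 members with 8 windows. Anxa3, Anxa6 and Anxa13 had no entry in that table. The motifs searched, on both strands, were a TATA box (TATAAA), an AP-1 site (TGANTCA), an NF-kB site (GGACTTTCC), a STAT site (TTCNNNGAA), an E-box (CACGTG) and a GC box (GGGCGG). Capitals below mark the TATA box, the AP-1 site and the NF-kB site. The Anxa2 window is chr9:69453433-69453732 on the plus strand. The Anxa1 window is chr19:20390622-20390921 and that of the upstream start of Anxa4 is chr6:86793535-86793834, both on the minus strand. Read 5′ to 3′, they are:
Anxa2: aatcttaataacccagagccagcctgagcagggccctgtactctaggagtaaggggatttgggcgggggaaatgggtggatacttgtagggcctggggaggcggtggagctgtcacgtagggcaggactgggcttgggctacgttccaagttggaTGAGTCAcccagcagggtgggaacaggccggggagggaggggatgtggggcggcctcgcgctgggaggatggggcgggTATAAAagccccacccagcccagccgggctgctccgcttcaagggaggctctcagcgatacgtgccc
Anxa1: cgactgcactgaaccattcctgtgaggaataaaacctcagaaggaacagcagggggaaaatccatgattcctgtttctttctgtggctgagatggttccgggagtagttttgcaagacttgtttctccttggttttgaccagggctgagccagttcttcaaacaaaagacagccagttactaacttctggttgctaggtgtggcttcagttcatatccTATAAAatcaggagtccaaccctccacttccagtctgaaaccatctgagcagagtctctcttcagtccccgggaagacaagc
Anxa4: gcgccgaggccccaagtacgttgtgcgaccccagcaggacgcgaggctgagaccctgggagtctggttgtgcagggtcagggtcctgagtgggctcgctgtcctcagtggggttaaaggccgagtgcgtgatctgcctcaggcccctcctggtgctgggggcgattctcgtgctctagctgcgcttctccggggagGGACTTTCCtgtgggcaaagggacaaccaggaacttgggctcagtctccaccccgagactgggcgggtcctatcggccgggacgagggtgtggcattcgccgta
Counted from the start base as 0, the Anxa2 window held a TATA box at -17 to -12 and the AP-1 letters TGAGTCA at -95 to -89. The Anxa1 window held a TATA box at -32 to -27, and the Anxa4 window held the NF-kB letters at -54 to -46. Of 32851 promoter windows of the same length, 13.6% held a TATA box, 7.81% an AP-1 site, 0.344% this NF-kB site, 8.30% a STAT site, 7.15% an E-box and 35.7% a GC box. The NF-kB letters were thus the rarest. GC boxes lay in the windows of Anxa2, Anxa4, Anxa7 and Anxa11 and an E-box in 1 window of Anxa7, and no motif overlapped another. No window of Anxa5 and none of the downstream start of Anxa4 held any of these motifs, and no member's window held the STAT letters. A match describes letters in a window and not a bound site.

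The 4 sections held 2401 to 2682 tissue spots and 25957128 to 44528078 unique molecular identifiers (UMIs), with a median of 8656 to 16162.5 UMIs a spot, deepest in normal 1. Levels are CPM, a gene's count scaled to a library of 1000000 UMIs, with all UMIs of a section or zone as the total. Overlap between sections was read on these levels with 2 sections a condition. No share of all genes without overlap is given, so it is a description and not a test. Differences are log2 values from edgeR's quasi-likelihood test on counts summed by section, normalised by trimmed mean of M values (TMM), with Benjamini-Hochberg adjustment over all genes tested and a threshold of 0.05. Each spot was called cortex, outer stripe, inner stripe (both of the outer medulla), inner medulla or pelvis by marker genes of the spot and its neighbours. Havcr1 (Kim-1), a marker of injured proximal tubule, was at 0.966 and 2.13 CPM in the normal and 1408 and 1413 CPM in the ischemic sections, and all 4 podocyte markers were detected in every section. Summed over 6 neutrophil markers, the sections stood at 1.41 and 2.17 CPM (normal, 5 of 6 detected, Ly6g at 0) and at 177 and 178 CPM (ischemic, 6 of 6 detected). The 6 urothelial markers went the other way, at 202 and 530.4 CPM against 35.2 and 64.5 CPM, and 7 macrophage and monocyte markers spanned 197 to 282 CPM in the normal and 227 to 233 CPM in the ischemic sections. In counts summed over spots, fewer cells of a type and less RNA per cell cannot be told apart.

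Across whole sections, 7 of the 9 annexins were higher after ischemia, 1 was lower and 1 did not pass the test. Among all 15305 genes tested, 31.0% passed as higher and 29.7% as lower, and the members' median log2 difference was 1.34 beside 0.04 for all genes. Scaling by total counts without TMM factors, an alternative chosen after seeing the data, turned the split of all genes from 4737 higher and 4542 lower to 5750 higher and 2829 lower. Anxa3 and Anxa2 stood well above the rest, Anxa1, Anxa4, Anxa5, Anxa6 and Anxa7 rose by log2 differences of 0.95 to 1.44, and Anxa13 fell.

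Anxa2, which pairs with S100a10 in a tetramer that binds plasminogen and tissue plasminogen activator at the cell surface, was at 42.5 and 69.7 CPM in the normal and 495 and 543 CPM in the ischemic sections. Every ischemic section was at least 7.11 times any normal section, and the log2 difference was 2.97 (SE 0.17, adjusted p = 1.32e-06) by edgeR's quasi-likelihood test. Anxa1, a glucocorticoid-induced protein that acts on formyl peptide receptors and limits leukocyte recruitment, was at 11 and 24.3 CPM in the normal and 50.6 and 54.9 CPM in the ischemic sections. Its normal sections were far apart, yet both lay below both ischemic sections, with a log2 difference of 1.36 (SE 0.22, adjusted p = 0.000635) by the same test. Of all members Anxa3, an annexin that is abundant in neutrophils, had the largest difference. Its levels were 18.5 and 31.6 CPM in the normal and 278 and 264 CPM in the ischemic sections, without overlap between conditions, a log2 difference of 3.20 (SE 0.17, adjusted p = 8.83e-07) by edgeR's test.

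Anxa4, an epithelial annexin of apical membranes that tempers calcium-activated chloride conductance, was at 44.4 and 54.5 CPM in the normal and 159 and 164 CPM in the ischemic sections. The ischemic sections lay close to each other and far above the normal ones, a log2 difference of 1.44 (SE 0.10, adjusted p = 4.82e-06) by edgeR. Anxa5, the phosphatidylserine-binding protein used to stain apoptotic cells, which forms arrays at membrane wounds, was at 78.3 and 102 CPM in the normal and 274 and 274 CPM in the ischemic sections. No overlap was seen, and edgeR gave a log2 difference of 1.34 (SE 0.12, adjusted p = 1.48e-05). Anxa6, a long annexin with a duplicated core that acts in endosomes and membrane repair, was at 26.2 and 38.2 CPM in the normal and 73.2 and 74.9 CPM in the ischemic sections. Both ischemic sections were again on top, and the log2 difference was 0.95 (SE 0.11, adjusted p = 9.65e-05) in edgeR's test. Anxa7 (synexin), which fosters membrane fusion in secretion, was at 72.1 and 86.6 CPM in the normal and 205 and 209 CPM in the ischemic sections. Both ischemic values lay above both normal ones, and its log2 difference was 1.12 (SE 0.11, adjusted p = 2.90e-05) by edgeR.

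Anxa11, which tethers RNA granules to lysosomes and takes part in cytokinesis, was at 54.8 and 66.2 CPM in the normal and 78.7 and 80.4 CPM in the ischemic sections. The ischemic values were higher in CPM, but by little more than the gap between the normal sections, and on the TMM scale the log2 difference of 0.13 (SE 0.10, adjusted p = 0.272) did not pass edgeR's test. Scaling by total counts moved the median of all genes by 0.27, and on that scale Anxa11 passed, at 0.40 (adjusted p = 0.0157 by edgeR); the other members kept their direction and their side of the threshold. Anxa13, a lipid-anchored protein of intestinal and renal epithelium, rested on few counts, 144 and 86 in the normal and 29 and 16 in the ischemic sections. It was at 3.23 and 3.11 CPM in the normal and 0.934 and 0.616 CPM in the ischemic sections, and it fell, with a log2 difference of -2.30 (SE 0.28, adjusted p = 0.000124) by edgeR's test and no overlap between conditions. In CPM, 8 of the 9 members were higher in normal 2 than in normal 1, as were the urothelial, fibroblast and macrophage markers, and the part of the makeup of the sections in those gaps was not tested.

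**Figure D1:**
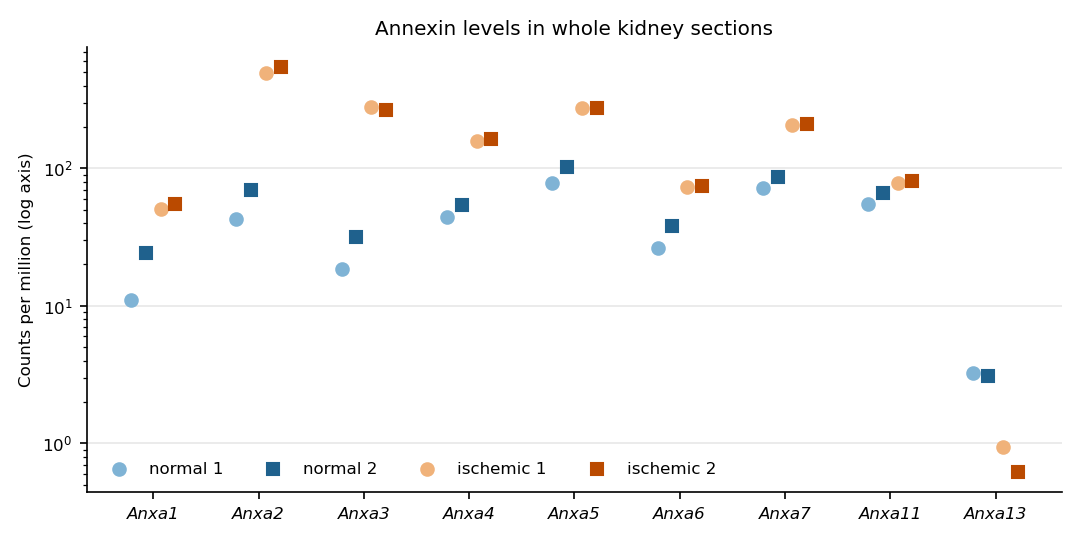
Level of each annexin in each whole section in CPM on a log axis; circles and squares are the 2 sections of each condition. The ischemic sections sit above the normal sections for the members from Anxa1 to Anxa11, with a small gap for Anxa11, and below them for Anxa13 (0.934 and 0.616 against 3.23 and 3.11 CPM).

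In the normal kidney the annexins were low in the cortex and outer stripe and higher toward the inner medulla and pelvis, except Anxa13. Against the cortex, the normal outer stripe had 0 of 9 members higher and 1 lower (background 7.69% and 7.64% of 14001 genes), and the inner stripe had 3 higher and 1 lower (background 11% and 9.74%). The inner medulla had 5 higher and 1 lower (background 18.6% and 17.7%), and the pelvis 7 higher and 1 lower (background 23.1% and 20.8%). The member that was lower was Anxa13 in each case, with 1 to 7 counts in each of those zones of a section against 131 and 78 in the cortex. Scaling by total counts moved the all-gene median of these contrasts by -0.15 (outer stripe) to 0.46 (pelvis) on the log2 scale.

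Of the members other than Anxa13, Anxa1 had the largest difference between normal pelvis and cortex. Between normal inner medulla and cortex that of Anxa2, given below, was larger, and the genes were not tested against each other. Levels of Anxa1 in normal 1 and normal 2 were 7.21 and 13.9 CPM in the cortex, 7.14 and 12.0 CPM in the outer stripe, 10.5 and 26.2 CPM in the inner stripe, 44.4 and 68.3 CPM in the inner medulla and 87.1 and 142 CPM in the pelvis. Pelvis and inner medulla did not overlap each other or the 3 outer zones, which overlapped among themselves. Against the cortex the pelvis was higher by a log2 difference of 3.04 (SE 0.25, adjusted p = 1.18e-08) and the inner medulla by 2.08 (SE 0.27, adjusted p = 1.18e-05) in edgeR's test. In the normal sections the pelvis zone took 5.01% and 5.03% of spots but 24.4% and 31.7% of Anxa1 counts.

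Anxa2 followed the same order from the inner stripe inward, with 24.2 and 36.0 CPM in the normal cortex, 27.7 and 39.4 CPM in the outer stripe, 67.8 and 116 CPM in the inner stripe, 177 and 225 CPM in the inner medulla and 268 and 307 CPM in the pelvis. Only the cortex and outer stripe overlapped. Relative to the cortex edgeR gave 1.34 (SE 0.16, adjusted p = 4.66e-06) for the inner stripe, 2.36 for the inner medulla and 2.82 for the pelvis on the log2 scale. For Anxa3 the normal pelvis, at 119 and 179.8 CPM, stood apart from the inner medulla, at 34.1 and 58.4 CPM, and from the cortex, at 16.0 and 20.6 CPM, while each other pair of neighbouring zones in the order overlapped. In normal tissue the outer stripe was the zone of lowest mean level for Anxa3, at 11.3 and 16.7 CPM, although its difference from the cortex did not pass the test (log2 difference -0.24, SE 0.20, adjusted p = 0.506 by edgeR).

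Anxa5 and Anxa6 were also higher in the normal inner stripe, inner medulla and pelvis than in the cortex, with edgeR log2 differences for Anxa5 of 0.77, 0.87 and 0.89 and for Anxa6 of 0.61, 1.18 and 1.09. The Anxa6 inner stripe call was lost without ischemic 1 or without ischemic 2, at adjusted p = 0.0886 and 0.0896 by edgeR. Anxa4 and Anxa11 passed only in the pelvis, by 0.59 and 0.45 on the log2 scale, and neither call held throughout. Anxa4 missed edgeR's threshold in 2 of 14 alternatives, at 0.35 without normal 2 and 0.57 without ischemic 2. Anxa11 missed it in 4 of 14, at 0.16 without normal 1, 0.44 without ischemic 1, 0.43 without ischemic 2 and 0.36 with no filter on low counts. Of the 8 members other than Anxa13, Anxa7 varied least among the zones of the normal kidney by the ratio of highest to lowest mean, from 61.6 CPM (normal 1, outer stripe) to 132 CPM (normal 2, pelvis), and passed in no zone. Urothelial markers made up 5215 and 6336 CPM of the normal pelvis, whose marker genes chose that zone, and 893 and 2195 CPM of the normal inner medulla, against 4.81 and 19.0 CPM of the cortex, and their part in the gradients was not tested.

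**Figure D2:**
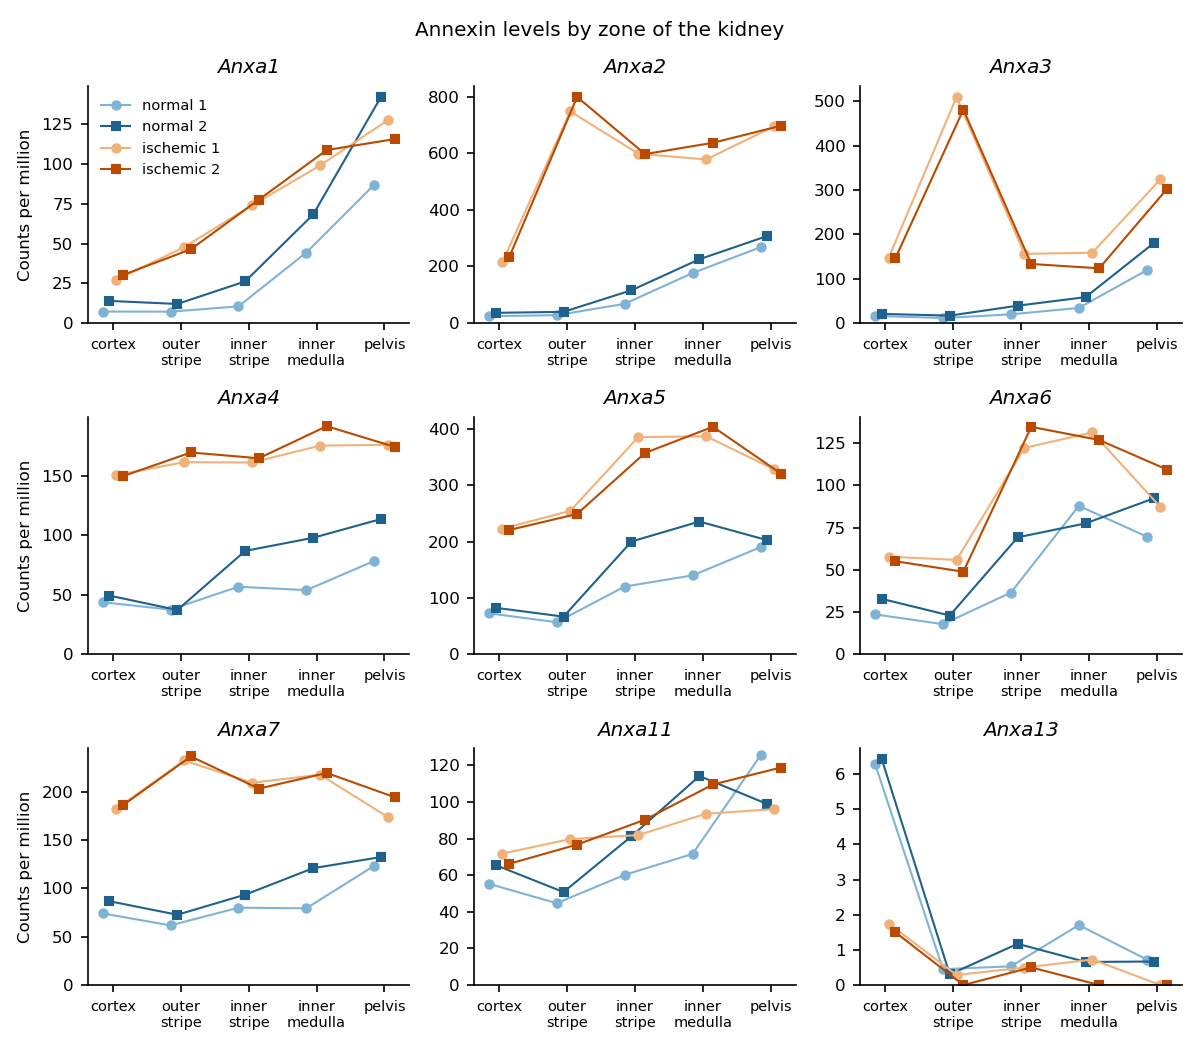
Level of each annexin (CPM, linear axes from 0, scaled per gene) in the 5 zones of each section; lines join the zones of 1 section. Anxa2 and Anxa3 peak in the outer stripe of both ischemic sections (747 and 798, and 509.7 and 481 CPM), where both are at their lowest or near it in the normal sections.

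After ischemia the outer stripe, the zone that holds the last segment of the proximal tubule, became the zone with the highest Anxa2 and Anxa3. There 7 members were higher and 0 lower (background 27.9% higher). Anxa3 was at 11.3 and 16.7 CPM in the normal and 509.7 and 481 CPM in the ischemic sections, a log2 difference of 4.77 (SE 0.21, adjusted p = 2.59e-12) by edgeR. Anxa2 was at 27.7 and 39.4 CPM in the normal and 747 and 798 CPM in the ischemic sections, a log2 difference of 4.14 (SE 0.17, adjusted p = 1.15e-12). Both genes were at least 18.9 times higher in any ischemic than in any normal outer stripe. The outer stripe held 61.7% and 62.1% of all Anxa3 counts of the ischemic sections against 21.4% and 19.0% in the normal ones, with 26.7% and 26.6% against 30.6% and 30.5% of the spots.

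The other members rose less in that zone. Anxa1 was at 7.14 and 12.0 CPM in the normal and 47.8 and 46.4 CPM in the ischemic sections, a log2 difference of 1.94 (SE 0.23, adjusted p = 9.48e-07) by edgeR. Anxa4, the apical epithelial annexin, was at 37.4 and 37.0 CPM in the normal and 161 and 169.6 CPM in the ischemic sections (log2 difference 1.74). Anxa5 was at 56.6 and 66.5 CPM in the normal and 255 and 249 CPM in the ischemic sections (1.64). For these 3 genes no ischemic outer stripe overlapped a normal one in CPM, with no all-gene share given. Anxa7 was at 61.6 and 72.6 CPM in the normal and 232 and 236 CPM in the ischemic sections (1.41). Anxa6 was at 17.7 and 22.8 CPM in the normal and 55.8 and 48.8 CPM in the ischemic sections (0.98). These did not overlap either, and all 5 passed edgeR's threshold. Anxa11, at 44.7 and 50.8 CPM in the normal and 79.8 and 76.8 CPM in the ischemic sections, did not overlap between conditions but missed the threshold (log2 difference 0.31, SE 0.14, adjusted p = 0.0691 by edgeR). In the other zones Anxa11 had log2 differences of -0.02 (cortex), -0.03 (inner stripe), -0.07 (inner medulla) and -0.17 (pelvis), none past the threshold, and scaled by total counts the first 3 turned to 0.19, 0.30 and 0.11 while that of the outer stripe was 0.71 (adjusted p = 0.00288 by edgeR). That scaling moved the all-gene medians of the zones by 0.096 (pelvis) to 0.40 (outer stripe). In the outer stripe the neutrophil markers summed to 1.22 and 1.31 CPM in the normal and 319.7 and 329 CPM in the ischemic sections. Smooth muscle markers there were at 38.6 and 55.7 CPM against 412 and 465 CPM, and fibroblast markers at 109.5 and 135 CPM against 236 and 228 CPM. Podocyte markers were at 15.2 and 14.9 CPM against 30.3 and 33.4 CPM. The part of those cells in the annexin levels was not tested.

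In the cortex 7 members were higher and 1 lower (background 20.8% and 19.9%). Anxa2 was at 24.2 and 36.0 CPM in the normal and 215 and 232 CPM in the ischemic sections, a log2 difference of 2.70 (SE 0.16, adjusted p = 2.54e-10) by edgeR. Anxa3 was at 16.0 and 20.6 CPM in the normal and 147 and 146 CPM in the ischemic sections (log2 difference 2.80, SE 0.20, adjusted p = 1.71e-09). No section overlapped for either. The cortical log2 differences of the other members that rose were 1.28 for Anxa1, 1.48 for Anxa4, 1.31 for Anxa5, 0.81 for Anxa6 and 0.98 for Anxa7. The test of the difference between zones put the change of Anxa3 in the outer stripe above that in the cortex by 1.97 (SE 0.27, adjusted p = 0.000136) on the log2 scale. For Anxa2 the same value was 1.44 (SE 0.22, adjusted p = 0.000323). These 2 were the only members past edgeR's threshold in that contrast, where 4.66% of all genes passed as higher. Both calls held without normal 1 or normal 2 but needed both ischemic sections: without ischemic 1 or ischemic 2 the values stayed at 1.93 and 2.01 for Anxa3 and 1.44 and 1.46 for Anxa2, with adjusted p of 0.0548 to 0.122 by edgeR. The number of members past the threshold in that contrast also moved with the section left out. No all-gene share is given for those fits. In the cortex neutrophil markers summed to 1.3 and 1.65 CPM in the normal and 68.0 and 80.3 CPM in the ischemic sections, and their part in the annexin levels was not tested.

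**Figure D3:**
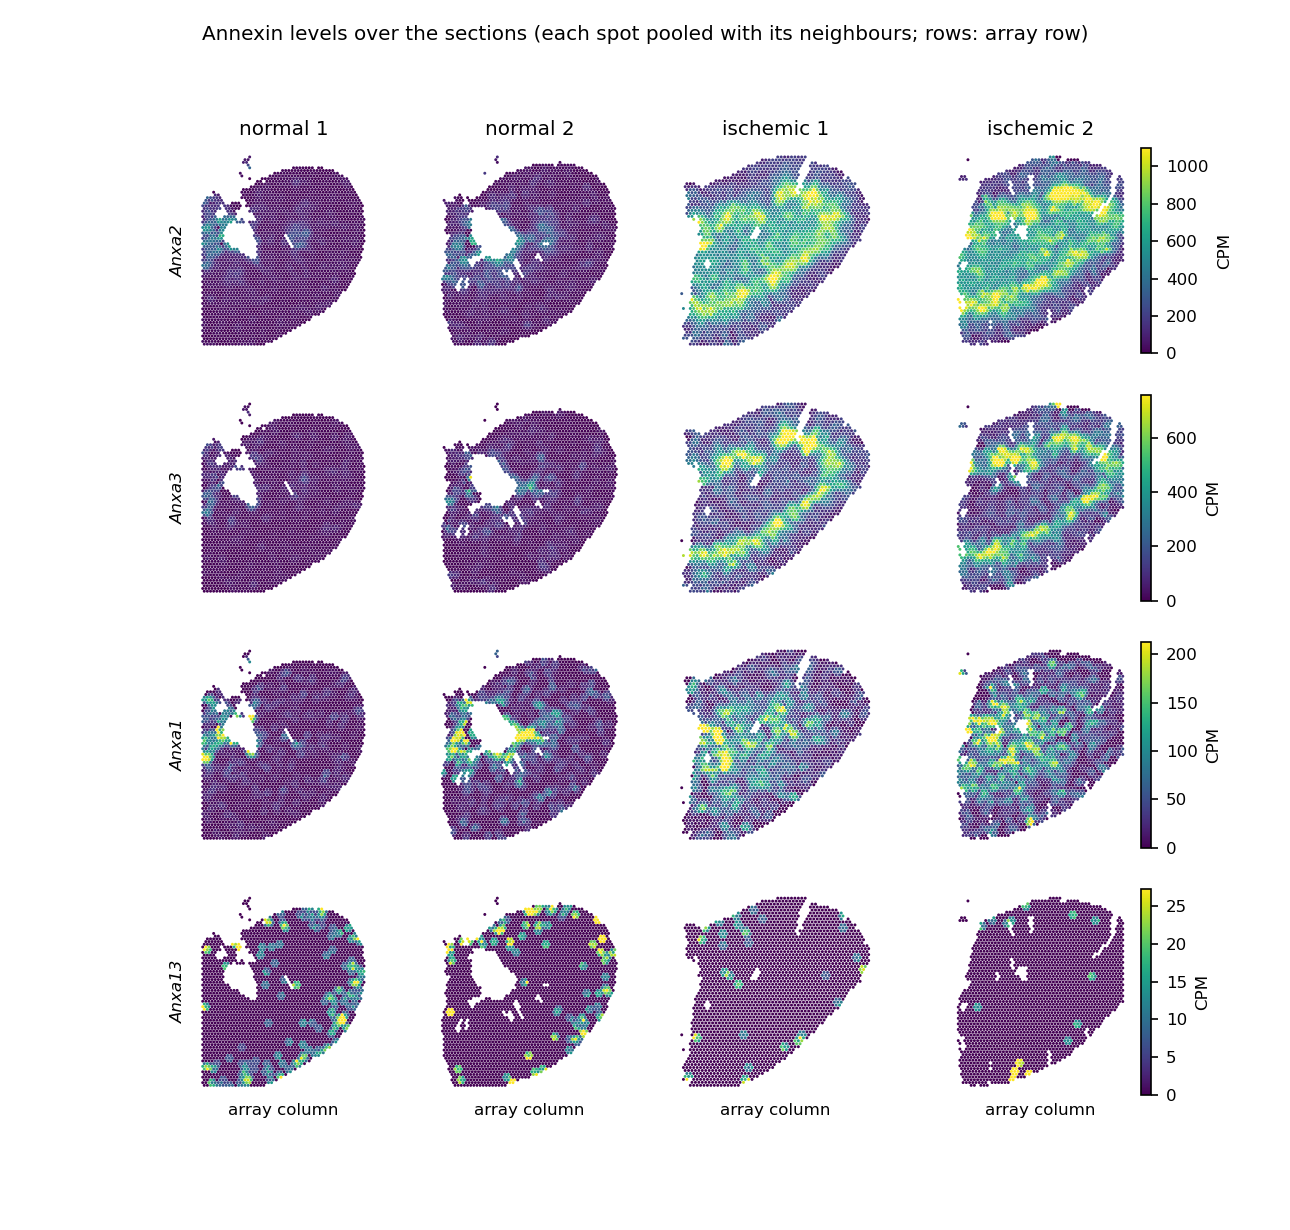
Maps of Anxa2, Anxa3, Anxa1 and Anxa13 over the 4 sections, each spot drawn at its place on the array and colored by the CPM of the spot pooled with its neighbours, on 1 scale per gene. Anxa2 and Anxa3 form a band between the outer rim and the center of both ischemic sections, Anxa1 lies around the pelvis of the normal sections and through the center of the ischemic ones, and Anxa13 dots the rim of the normal sections.

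In the inner stripe, where thick ascending limbs dominate, 7 members were again higher and 0 lower (background 22.6%). Anxa1 rose there by a log2 difference of 1.86 (SE 0.26, adjusted p = 8.76e-06), from 10.5 and 26.2 CPM to 74.0 and 77.6 CPM, Anxa2 by 2.42 and Anxa3 by 2.05, by edgeR. Anxa6, at 36.4 and 69.2 CPM in the normal and 122 and 135 CPM in the ischemic sections, rose by 1.02 (SE 0.17, adjusted p = 7.59e-05). Anxa5, at 120.0 and 200.1 CPM in the normal and 386 and 358 CPM in the ischemic sections, rose by 0.93 (SE 0.14, adjusted p = 2.70e-05). Like Anxa6 it had its normal sections far apart but no overlap with the ischemic ones. The rises of Anxa4 and Anxa7 were 0.89 and 0.92. Against the change in the cortex, 0 members passed edgeR's threshold in the inner stripe, where 10.9% of all genes passed in either direction. An unadjusted p under 0.05 by edgeR was met by 2 members and by 3326 of all 14001 genes. DESeq2 called 1 member, with no all-gene share given for it. Leaving out normal 1 or normal 2 changed the number of members called by edgeR, again with no all-gene share given. The nearest were Anxa4, at -0.59 (SE 0.21, adjusted p = 0.085), and Anxa3, at -0.74 (SE 0.28, adjusted p = 0.0969). In this zone neutrophil markers summed to 1.42 and 1.95 CPM in the normal and 135 and 144 CPM in the ischemic sections. Fibroblast markers were at 152 and 192 CPM against 507 and 466 CPM, and smooth muscle markers at 49.7 and 83.7 CPM against 355 and 405 CPM. Podocyte markers were at 7.46 and 9.38 CPM against 49.9 and 55.8 CPM, the latter near the 56.1 and 63.2 CPM of the ischemic cortex. The spots called inner stripe were thus not of like makeup in both conditions. Their part in the annexin levels was not tested.

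Fewer rises passed in the inner medulla. Of the 9 members 6 were higher and 0 lower (background 14.5%). Anxa2 was at 177 and 225 CPM in the normal and 578 and 637 CPM in the ischemic sections, a log2 difference of 1.39 (SE 0.16, adjusted p = 1.81e-06) by edgeR. Anxa3 was at 34.1 and 58.4 CPM in the normal and 159 and 123 CPM in the ischemic sections (log2 difference 1.40, SE 0.22, adjusted p = 5.30e-05). No normal inner medulla reached an ischemic one for either gene. The change of Anxa2 minus its change in the cortex was -1.31 (SE 0.22, adjusted p = 0.000831) and that of Anxa3 was -1.40 (SE 0.29, adjusted p = 0.00438) on the log2 scale. Both thus rose less than in the cortex, in a contrast in which 6.79% of all genes passed as lower. Anxa1, at 44.4 and 68.3 CPM in the normal and 99.1 and 109 CPM in the ischemic sections, passed narrowly (log2 difference 0.67, SE 0.26, adjusted p = 0.0451 by edgeR) and missed the threshold in 6 of 14 alternatives. Anxa5, at 139.9 and 236 CPM in the normal and 387 and 404 CPM in the ischemic sections, rose by 0.88 (SE 0.15, adjusted p = 0.00011) by edgeR, and Anxa4 and Anxa7 rose by 1.07 and 0.92. Anxa6, at 87.9 and 77.5 CPM in the normal and 131 and 127 CPM in the ischemic sections, had a log2 difference of 0.44 (SE 0.19, adjusted p = 0.0751). The zone was not alike in both conditions: urothelial markers stood at 893 and 2195 CPM in the normal and 4.72 and 59.3 CPM in the ischemic inner medulla. In normal 1, normal 2, ischemic 1 and ischemic 2 smooth muscle markers were at 1988, 442, 335 and 236 CPM and fat markers at 473, 67.6, 0.726 and 0.786 CPM. Neutrophil markers were at 5.97, 9.19, 117 and 83.7 CPM and podocyte markers at 35.0, 26.3, 58.4 and 57.8 CPM. The part of these cells in the annexin values was not tested. When each spot was placed from its own counts alone, the inner medulla differences from the cortex were -0.62 for Anxa2 and -0.61 for Anxa3 and no longer passed edgeR's test. Neither passed without ischemic 1 or without ischemic 2. More members passed without normal 1 or without normal 2, fits for which no all-gene share is given.

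In the pelvis zone 5 members were higher and 0 lower (background 10.9%). The rise was 1.18 (SE 0.16, adjusted p = 2.71e-05) for Anxa2, from 268 and 307 CPM to 695 and 697 CPM, and 0.98 for Anxa3, 0.77 for Anxa4, 0.63 for Anxa5 and 0.42 for Anxa7 on edgeR's log2 scale. Without ischemic 1 only Anxa2 passed, and without ischemic 2 only Anxa2 and Anxa3. Anxa1, which in the normal sections was at its highest in the pelvis, was at 87.1 and 142 CPM in the normal and 128 and 116 CPM in the ischemic sections there. Its conditions overlapped, with a log2 difference of -0.01 (SE 0.24, adjusted p = 0.983) by edgeR. The zone was defined in each section as the spots highest in urothelial markers, which summed to 5215 and 6336 CPM in the normal but 766 and 1116 CPM in the ischemic pelvis, so spots of the 2 conditions were not of like makeup. Neutrophil markers there were at 1.45 and 5.35 CPM against 346 and 137 CPM, and their part was not tested.

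**Figure D4:**
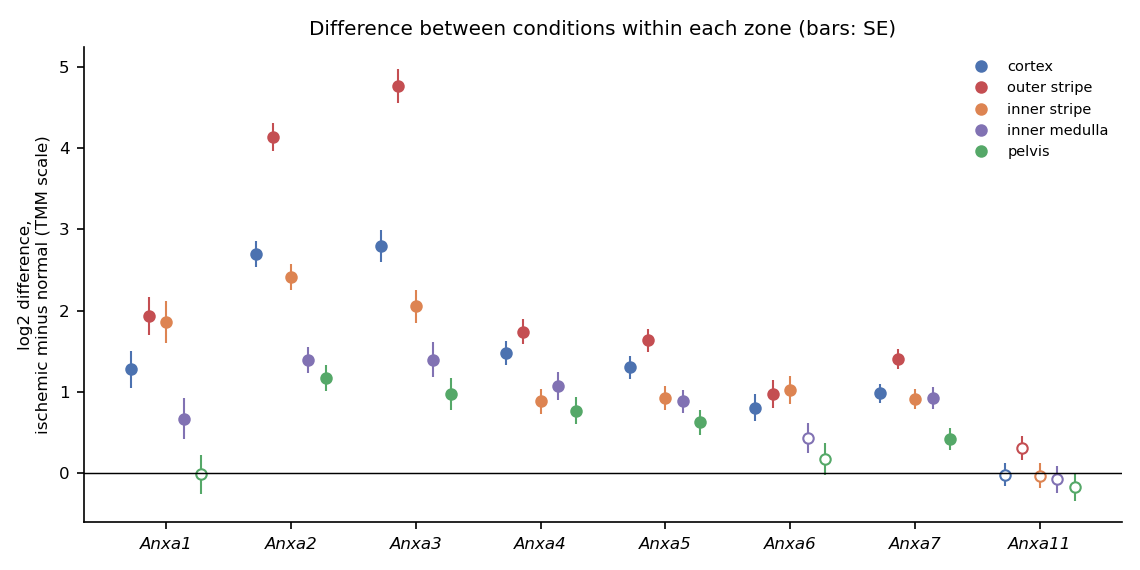
Log2 difference between ischemic and normal sections (TMM scale, edgeR) for 8 annexins in each of the 5 zones; bars are standard errors, filled points passed the adjusted threshold of 0.05 and open points did not. The outer stripe stands out for Anxa2 (4.14) and Anxa3 (4.77), and Anxa11 lies between -0.17 and 0.31, with no filled point; Anxa13 is left out because it had few counts outside the cortex.

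Among the zones of the ischemic sections the annexins ran in different orders. Anxa2 ran from outer stripe through pelvis to inner medulla and inner stripe, which overlapped, down to cortex, and Anxa3 from outer stripe through pelvis to a group of cortex, inner stripe and inner medulla that overlapped. Of the ischemic pelvis spots only 28.3% and 28.5% were also called pelvis from their own counts alone, against 66.4% and 63.0% in the normal sections. Havcr1 in the ischemic pelvis was at 817 to 1091 CPM, and its relation to the annexin levels of that zone was not tested. Anxa1 rose at each step inward, from cortex through outer stripe, inner stripe and inner medulla to pelvis, with no overlap between neighbours, from 27.1 and 30.2 CPM in the cortex to 128 and 116 CPM in the pelvis. Anxa5 was highest in the inner medulla (387 and 404 CPM), followed by the inner stripe (386 and 358 CPM). For Anxa6 those zones overlapped at the top, at 131 and 127 CPM and 122 and 135 CPM, and the outer stripe was lowest in mean, at 55.8 and 48.8 CPM. Anxa7 was highest in the outer stripe, at 232 and 236 CPM, and lowest in mean in the pelvis, at 174 and 194 CPM, which overlapped the cortex. Anxa11 was highest in mean in the pelvis and inner medulla, which overlapped, and lowest in the cortex, at 71.9 and 66.3 CPM. Anxa4 spanned only 149.7 to 192 CPM over all zones and both ischemic sections.

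Over the 10 zone and section units of the normal kidney, the Pearson correlations of log2(CPM + 1) among the 28 pairs of members other than Anxa13 ran from 0.81 to 0.96. Over the 10 ischemic units they ran from -0.53, between Anxa3 and Anxa6, to 0.94, between Anxa5 and Anxa6, and 12 of 28 pairs were under 0.5. Anxa3 and Anxa1, at 0.96 in the normal units, were at 0.01 in the ischemic units. Units of 1 section share a library, so these values are a description.

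Within the ischemic outer stripe, spots were split by Havcr1, a gene of injured proximal tubule, into the 25% with the highest and the 25% with the lowest level, 161 spots each in ischemic 1 and 174 each in ischemic 2. From low to high Havcr1 spots Anxa3 went from 336 to 644 CPM in ischemic 1 and 285 to 575 CPM in ischemic 2, ratios of 1.92 and 2.02. Anxa1 went the other way, from 90.6 to 26.1 CPM in ischemic 1 and 99.6 to 24.3 CPM in ischemic 2, ratios of 0.29 and 0.24. Anxa2 and Anxa4 were higher in the high Havcr1 spots of both sections, with ratios of 1.27 and 1.43 and of 1.31 and 1.85, while Anxa6 was lower (0.40 and 0.41), as was Anxa5 (0.63 and 0.56). Lcn2, a gene of injured distal tubule and of neutrophils, had ratios of 0.22 and 0.20. The high Havcr1 spots were deeper, with medians of 19008 and 14313 UMIs against 12528 and 8454, and spots of a section are not replicates, so no test was made.

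In the ischemic cortex the same split gave ratios of 1.99 and 2.21 for Anxa2, 2.43 and 2.20 for Anxa3, 0.64 and 0.53 for Anxa1 and 0.60 and 0.57 for Anxa6. Across all spots of a section, each pooled with its neighbours, Spearman's rho with Havcr1 was 0.69 and 0.68 for Anxa3 (2401 and 2613 spots). For Anxa6 it was -0.57 and -0.60, and for Anxa1 -0.35 and -0.42. A wider sum of 6 injured tubule markers took in Havcr1, Lcn2, Krt20, Vcam1, Sox9 and Cdkn1a. With that sum rho was 0.18 and 0.06 for Anxa3, 0.49 and 0.46 for Anxa6 and 0.58 and 0.56 for Anxa1. With neutrophil markers rho was 0.48 and 0.46 for Anxa3, and with total UMIs 0.41 and 0.38. Pooled spots overlap and share a library and depth.

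**Figure D5:**
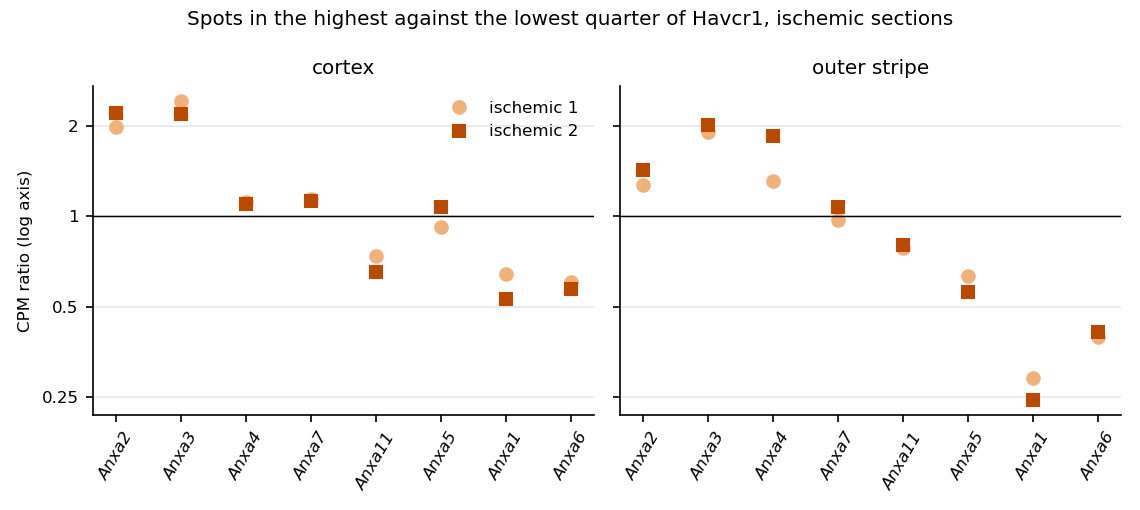
Ratio of CPM in the spots with the highest 25% of Havcr1 to those with the lowest 25% (log axis, 1 is no difference), for 8 annexins in the cortex and outer stripe of the 2 ischemic sections. Anxa2, Anxa3 and Anxa4 lie above 1 and Anxa1, Anxa6 and Anxa11 below 1 in both zones and both sections.

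Anxa13 was the member that fell. Its counts lay in the cortex, with 131 of 144 counts in normal 1 and 78 of 86 in normal 2 found there and at most 7 counts in any other zone of a section. In the cortex it was at 6.30 and 6.42 CPM in the normal and 1.75 and 1.50 CPM in the ischemic sections. The conditions did not overlap, and the gene fell by 2.17 on the log2 scale (SE 0.34, adjusted p = 6.30e-05 by edgeR). Outside the cortex the ischemic sections had 0 to 3 counts a zone, so no fold is given and no zone passed the test. The maps drew attention to the rim, so the cortex was divided, after seeing them, by steps from the tissue edge. In normal 2 the 3 outermost steps were at 8.77 CPM (95% Poisson interval 6.49 to 11.6) and steps 4 to 6 at 4.76 CPM (95% Poisson interval 2.77 to 7.62). In normal 1 the same bands were at 6.87 CPM (95% Poisson interval 5.16 to 8.97) and 6.08 CPM (95% Poisson interval 4.23 to 8.45). The intervals overlap in both sections and cover counting error only.

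Over the 20 zone and section units, the 3 of 6323 other genes whose log2(CPM + 1) was most like that of Anxa13 by Pearson's r were Calb1 (0.91), Asl (0.89) and Slc22a8 (0.88). They encode the calcium-binding protein of the distal convoluted tubule, a urea cycle enzyme and the organic anion transporter of the proximal tubule. Slc22a8 also served to place spots in the cortex. For Anxa3 the nearest were the ribosomal protein genes Rpl23a, Rpl31 and Rpl35 (r of 0.98). The nearest to Anxa1 were Plscr3, Vopp1 and Fam129b, to Anxa4 Chrnb1, Mvp and Hnrnpl, to Anxa5 Arhgdia, Ctnna1 and Slc38a2, to Anxa6 Adprh, Esyt1 and Slc1a5, to Anxa7 Mybbp1a, Fkbp1a and Bola2 and to Anxa11 Capn5, Lsm6 and Krt7. These units share libraries and mix both conditions, so the values are descriptive.

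The S100 proteins that bind annexin tails rose with them in part, 3 of 4 in whole sections with a median log2 difference of 2.12, where 31.0% of all genes passed as higher. S100a10, the partner of Anxa2, was at 259 and 270.4 CPM in the normal and 1269 and 1250.4 CPM in the ischemic sections (log2 difference 1.97, SE 0.15, adjusted p = 7.05e-06 by edgeR). S100a11, which binds Anxa1, was at 155 and 222 CPM in the normal and 1072 and 1102 CPM in the ischemic sections (log2 difference 2.27, SE 0.15, adjusted p = 3.21e-06). S100a6, which binds Anxa2, Anxa6 and Anxa11, was at 335 and 707 CPM in the normal and 3077 and 3098 CPM in the ischemic sections (log2 difference 2.34, SE 0.26, adjusted p = 6.65e-05). S100a4 stood at 12.4 and 20.1 CPM in the normal and 21.3 and 19.0 CPM in the ischemic sections and did not pass (log2 difference 0.07, SE 0.15, adjusted p = 0.704). Its zones went in opposite directions. Normal against ischemic, it was at 9.91 to 12.0 against 28.9 to 29.4 CPM in the outer stripe and 10.7 to 13.3 against 16.3 to 23.6 CPM in the inner stripe. It was at 69.9 to 72.2 against 22.0 to 22.5 CPM in the inner medulla and lower in the ischemic pelvis too, and it overlapped in the cortex. By zone S100a10 was set beside Anxa2. Its log2 difference was 2.46 in the cortex and 1.81 in the outer stripe. The change in the outer stripe against that in the cortex was -0.65 (SE 0.23, adjusted p = 0.0762) by edgeR, where that of Anxa2 was 1.44. In the inner medulla the same contrast was -1.31 (SE 0.24, adjusted p = 0.00149) for S100a10 and -1.31 for Anxa2, and in the inner stripe -1.25 (SE 0.23, adjusted p = 0.00135) for S100a10 and -0.28 for Anxa2. The difference between these genes was not tested.

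The receptors of annexin A1 were close to the limit of detection. Fpr1 had 0 and 0 counts in the normal and 25 and 27 in the ischemic sections, and Fpr2 1 and 4 against 20 and 19. Both passed edgeR's test as higher (adjusted p = 0.000158 and 0.00233), beside the neutrophil markers given above, whose part was not tested. Fpr3 was at 0 counts throughout, which in normal 1, the deepest section, allows a level of up to 0.0674 CPM. Pla2g4a, the cytosolic phospholipase A2 that annexin A1 inhibits, was at 3.19 and 6.29 CPM in the normal and 11 and 11.6 CPM in the ischemic sections (log2 difference 1.04, SE 0.21, adjusted p = 0.0023 by edgeR).

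Of 14 genes of plasma membrane repair, 8 were higher, 0 were lower and 6 did not pass in whole sections, with a median log2 difference of 1.15, where 31.0% and 29.7% of all genes passed as higher and lower. Myof was at 9.12 and 22.9 CPM in the normal and 70.8 and 74.6 CPM in the ischemic sections (log2 difference 1.98, SE 0.26, adjusted p = 0.000182 by edgeR). Dysf, the dysferlin gene, was at 9.07 and 10.6 CPM in the normal and 42.8 and 44.6 CPM in the ischemic sections (log2 difference 1.88, SE 0.09, adjusted p = 6.31e-07). Both encode membrane-patching proteins and were the largest rises of that list. Of 10 genes of phosphatidylserine exposure and uptake, 5 were higher, 3 lower and 2 did not pass, with a median of 0.42 (31.0% and 29.7% of all genes). The largest rises were the phosphatidylserine-binding Pros1, from 3.68 and 5.71 CPM to 22.4 and 24.0 CPM (log2 difference 2.06, SE 0.14, adjusted p = 2.79e-06 by edgeR), and Axl, a receptor kinase of phagocytosis. Axl went from 15.3 and 20.1 CPM to 52.7 and 52.6 CPM (log2 difference 1.31, SE 0.10, adjusted p = 4.75e-06). The larger fall was that of the scavenger receptor Stab2, at 2.49 and 2.71 CPM in the normal and 0.290 and 0.578 CPM in the ischemic sections (log2 difference -2.88, SE 0.33, adjusted p = 7.77e-05 by edgeR). Next came the engulfment receptor Mertk, at 7.57 and 10.3 CPM in the normal and 6.31 and 5.86 CPM in the ischemic sections (log2 difference -0.81, SE 0.14, adjusted p = 0.00108 by edgeR).

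The 3 annexins outside the member list were rare. Anxa8 was at 1.73 and 3.29 CPM in the normal and 1.42 and 1.66 CPM in the ischemic sections (log2 difference -0.93, SE 0.28, adjusted p = 0.0186 by edgeR). Anxa9 was at 4.81 and 10.1 CPM in the normal and 5.35 and 5.55 CPM in the ischemic sections (log2 difference -0.67, SE 0.24, adjusted p = 0.0381 by edgeR). Both fell by the test. The CPM of Anxa9 overlapped between conditions and those of Anxa8 did not. In the inner medulla Anxa8 had 11 and 10 counts in normal 1 and 2 and 0 and 0 in ischemic 1 and 2. There Anxa9 was at 16.2 and 60.4 CPM in the normal and 6.90 and 5.89 CPM in the ischemic sections. In the pelvis Anxa8 was at 26.1 and 40.8 CPM in the normal and 30.7 and 30.1 CPM in the ischemic sections, where the conditions overlapped. Anxa9 in the pelvis was at 36.3 and 41.4 CPM in the normal and 4.85 and 9.51 CPM in the ischemic sections. In the cortex it stood the other way, at 2.40 and 2.88 CPM in the normal and 4.85 and 4.83 CPM in the ischemic sections. The part of the urothelial cells, whose markers in the inner medulla and pelvis are given above, was not tested. Anxa10 had 2 and 0 counts in the normal and 2 and 4 in the ischemic sections, all in the pelvis zone, and was not tested.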

How the data were processed

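Gene expression was measured with Visium spatial transcriptomics in 4 kidney sections, 2 normal and 2 ischemic, grouped by their labels and named by the replicate number given there. The deposited values are raw counts of unique molecular identifiers per gene and spot, made by the authors with Space Ranger (1.3.0 per the file headers) on mm10 (per the submitters' processing notes), and the deposited spot positions (other values: array row, column and tissue flag) chose the spots over tissue. The authors' images and scale tables were not used. The deposited counts were not normalised before this work.

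Spots were placed in 4 zones by the highest standardised marker score of a spot pooled with up to 6 neighbours, and spots in the top 5.0% of urothelial marker level with at least 10 counts of it were called pelvis. Counts were summed by section, or by zone and section, and tested with edgeR 4.0.16 (R 4.3.3; filterByExpr, TMM, quasi-likelihood F test, Benjamini-Hochberg adjustment over all genes); zones of 1 section entered 1 model as separate units. Changes between zones were interaction terms. Alternatives were DESeq2 1.42.0, its size factors in edgeR, no filter, a replicate block, leaving out each section, only spots of at least 500 UMIs, 3 other zone rules, limma 3.58.1 with the section as random block and, for whole sections, no pelvis spots and equal zone weights; scaling by total counts was added after seeing the data. Levels are CPM without TMM factors; levels at 0 counts allow up to 3 counts, and intervals cover counting error only. Python 3.11.15 was used for sums. On simulated counts for the whole sections (15305 genes, 200 changed), edgeR recovered 81 of 100 genes changed by a log2 value of 1 and 93 of 100 changed by 2, with 8 false calls. For the outer stripe (14001 genes, 200 changed) it recovered 72 and 94 of 100, with 5 false calls. As many genes were raised as lowered and all others left equal. These runs thus cannot test the scaling of the real sections, where most genes passed.

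The members and the gene lists were chosen with earlier results of these data known. The text names all members and the other annexins, all S100 and annexin A1 partner genes listed, the 2 largest rises and 2 largest falls past the threshold of the membrane repair and phosphatidylserine lists, the 3 genes most like each member among those with a mean of at least 20 CPM, and Havcr1 and Lcn2 as injury checks. The genes most like Anxa2 are not reported here. Other sections of the study were not analysed here. Which of the 2 mice of a condition gave a section is not stated. Antisense or overlapping transcripts were not separated here.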

Additional observations from a re-analysis of the deposited data

Results flagged for a closer look

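The changes of 2 annexins with ischemia differed between zones by the interaction term of edgeR's quasi-likelihood test. Relative to the cortex, the log2 change of Anxa3 was larger in the outer stripe by 1.97 (adjusted p = 0.000136) and that of Anxa2 by 1.44 (adjusted p = 0.000323), and both ischemic outer stripes lay above both normal ones for each gene. In the inner medulla the change of Anxa3 minus that in the cortex was -1.40 (adjusted p = 0.00438) and that of Anxa2 was -1.31 (adjusted p = 0.000831), while each gene was still higher in both ischemic sections than in both normal ones. The normal inner medulla held more urothelial, smooth muscle and fat markers than the ischemic one, and their part in these values was not tested. Without ischemic 1 or without ischemic 2 none of the 4 values passed the threshold.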

How the results depend on the processing

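Of 1312 values of single annexins under 16 alternative settings, 1207 kept their direction and their side of the threshold, 48 newly passed it, 34 no longer passed it and 23 changed sign; the cause of these changes was not tested. Every member called in whole sections, the cortex, the outer stripe or the inner stripe kept its call between conditions in all alternatives run. The changes of sign were in values that had not passed the threshold. Anxa11 turned in the cortex to 0.19 with total counts and ranged from -0.071 to 0.039 (positive without ischemic 2) when 1 section was left out; in the inner stripe to 0.30 with total counts, 0.051 with no filter, 0.12 with zones called without neighbours, and ranged from -0.11 to 0.056 (positive without normal 1 or ischemic 1); in the inner medulla to 0.11 with total counts, 0.012 with no filter, and ranged from -0.19 to 0.12 (positive without normal 2 or ischemic 1); and in the pelvis to 0.16 without neighbours and ranged from -0.41 to 0.089 (positive without normal 1). Anxa1 in the pelvis turned to 0.080 with total counts, 0.025 with no filter, 0.020 with limma, 0.78 without neighbours, and ranged from -0.26 to 0.30 when 1 section was left out (positive without normal 2 or ischemic 2). Anxa13 in the inner stripe turned to 1.04 without spots near a zone boundary, on 0 to 3 counts in most sections. Anxa4 in the normal inner medulla against cortex ranged from -0.033 (without normal 2) to 0.54, and Anxa6 in the change of the inner medulla from -0.76 to 0.043 (without normal 1), when 1 section was left out. Called members per comparison moved as follows when each section was left out in turn: 1 to 5 in the pelvis, 0 to 7 for the change of the outer stripe, 0 to 3 for that of the inner stripe and 0 to 4 for that of the inner medulla; a group left with 1 section was assumed to vary like the others. With zones called without neighbours, 2 members were called for the normal outer stripe against cortex. The changes of the inner stripe and of the inner medulla each had 1, and the all-gene share under that zone rule is not given. For the change of the inner stripe DESeq2 and limma called 1 and 2 members, with no all-gene share given for either.

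The labels give no animal, litter or day to the replicate numbers, and the correlation of the deviations of same-numbered sections was 0.16 with only 2 pairs, so the numbers were not taken to pair the sections. With a replicate block, 1 member passed for the change of the inner stripe (Anxa4, log2 difference -0.59, adjusted p = 0.0465 by edgeR), Anxa11 passed in the outer stripe (0.31, adjusted p = 0.0499), and Anxa1 in the pelvis stood at 0.0054; the block changed no other call. Thinned to 2000 UMIs a spot, 2.73% and 5.17% of normal and 10.9% and 10.2% of ischemic spots held an Anxa1 UMI (14.2%, 16.6%, 40.0% and 33.5% unthinned), and 0.584% and 0.592% of normal and 0.128% and 0.159% of ischemic spots held an Anxa13 UMI. Thinning left out 48 to 150 spots a section. Depth limited Anxa13 outside the cortex and Fpr1, Fpr2, Anxa8 and Anxa10.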
